A study of Mus musculus with 11 samples.

Results

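The negative arm of the circadian clock was followed in mouse airway RNA through 10 genes, Per1, Per2, Per3, Cry1, Cry2, Ciart, Bhlhe40, Bhlhe41, Nr1d1 and Nr1d2. They were found by their symbols among the 21899 genes of the deposited expression table, and all 10 were among the 14004 genes that passed the filter of a mean of at least 0.5 FPKM. The genes were selected on earlier results of these data, in which several of them differed between OVA/LPS/GGsTop and OVA/LPS/Vehicle airways. Their values in that comparison are therefore a description, with no p-value, and nothing is read from the number of them that were called there. FPKM, the number of fragments scaled by exon length and by the size of the library, is a level per transcript length and is the unit of all levels below.

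The circadian clock of mammalian cells is a transcriptional feedback loop. CLOCK, or its relative NPAS2, pairs with BMAL1 (gene Arntl) and drives transcription from E-boxes, also at the genes of its own repressors. PER and CRY proteins then inhibit this activator, CIART and the DEC proteins (genes Bhlhe40 and Bhlhe41) restrain it as well, and the REV-ERB nuclear receptors (genes Nr1d1 and Nr1d2) repress Arntl through ROR elements. The loop also runs in cells of the airway, where glucocorticoids are known to induce Per1 and REV-ERBα is known to restrain inflammatory genes.

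Wild-type airways were sequenced in 3 groups, which in the study were taken from male BALB/c mice. PBS mice (n = 3 libraries) were not sensitised and received PBS only. OVA/LPS/Vehicle mice (n = 4) were sensitised to ovalbumin with alum, challenged with ovalbumin through the nose, given lipopolysaccharide and treated with vehicle, as a model of asthma exacerbation. OVA/LPS/GGsTop mice (n = 4) went through the same schedule and received GGsTop, an inhibitor of γ-glutamyl transferase, in place of vehicle. The vehicle libraries carry the numbers 12, 34, 56 and 78, and whether these are pools of animals is not stated. The hour at which tissue was collected is not given in the sources used here, so for these clock genes treatment and hour of collection cannot be told apart.

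The files held FPKM only, from which 14513136 to 18632382 fragments per library could be inferred. The labels name trachea, while the study's methods describe airways dissected free of the trachea. Cartilage markers, which mark the trachea and large bronchi, summed to between 0 and 62.2 FPKM, secretory epithelial markers to between 31621 and 54554 FPKM and alveolar type 2 markers to between 4463 and 15504 FPKM, so alveolar RNA was present in each library. The mean log2 level of each gene over all libraries was subtracted, and the deviations were set against the GC content of the genes. This slope compares libraries with each other. Per 10 points it was between -0.261 and -0.19 in the vehicle libraries and between 0.0464 and 0.108 in the GGsTop libraries, without overlap. In the library PBS 3 this slope was 0.533, against 0.0484 and 0.0611 in the other PBS libraries. Mitochondrial genes took 14.5% to 19.5% of the FPKM total in vehicle and 7.40% to 11.1% in GGsTop libraries, without overlap, and 2.08% to 10.1% in PBS libraries. Thyroid and parathyroid markers summed to 98.2, 269 and 540 FPKM in vehicle 12, 34 and 56 and to between 0.432 and 2.07 FPKM in the other 8 libraries. The part of GC content, mitochondrial RNA and thyroid tissue in the results below was not tested, other than by the GC correction whose values stand beside some of them.

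Start-site windows were taken from RefSeq on GRCm38.p6, from 250 bases before to 50 bases after the start of a gene, and were found for 8 of the 10 genes. Per2 and Bhlhe40 were not among the windows. Exact matches on both strands were searched for the E-box CACGTG, the E-prime box CACGTT, the D-box TTATGTAA, the ROR element core AGGTCA and the cyclic AMP response element TGACGTCA, none of which overlapped in these windows. Of the 32851 windows of this length in the table, 7.15% held an E-box, 4.68% an E-prime box, 0.938% a D-box, 16.3% a ROR element core and 1.79% a cyclic AMP response element. Of the 8 genes with a window, 4 held an E-box and 6 held an E-box or an E-prime box. These counts are per gene over all its windows, 2 for Per1, whereas the shares above are per window. The share of windows with either box was not computed. The windows below are printed because they carry the motifs through which clock factors are known to act, and these motifs are in capitals, on either strand. Ciart (chr3:95882179-95882478, minus strand) held 3 E-boxes, at 116, 58 and 44 bases before the start. Per3 (chr4:151044616-151044915, minus strand) held 2 D-boxes, the element bound by DBP, TEF and HLF, at 205 and 158 bases. Per1 (chr11:69098699-69098998, plus strand, the upstream one of 2 windows) held an E-box at 166 bases and a ROR element core at 137 bases. Cry1 (chr10:85185005-85185304, minus strand) held an E-prime box at 79 bases and an E-box at 60 bases. Nr1d1 (chr11:98775328-98775627, minus strand) held an E-prime box at 28 bases.
Ciart: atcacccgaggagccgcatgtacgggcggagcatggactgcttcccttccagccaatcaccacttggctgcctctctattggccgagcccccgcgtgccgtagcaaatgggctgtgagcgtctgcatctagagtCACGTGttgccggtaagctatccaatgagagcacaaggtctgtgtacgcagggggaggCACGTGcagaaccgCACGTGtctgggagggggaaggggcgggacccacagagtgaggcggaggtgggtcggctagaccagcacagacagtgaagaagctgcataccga
Per3: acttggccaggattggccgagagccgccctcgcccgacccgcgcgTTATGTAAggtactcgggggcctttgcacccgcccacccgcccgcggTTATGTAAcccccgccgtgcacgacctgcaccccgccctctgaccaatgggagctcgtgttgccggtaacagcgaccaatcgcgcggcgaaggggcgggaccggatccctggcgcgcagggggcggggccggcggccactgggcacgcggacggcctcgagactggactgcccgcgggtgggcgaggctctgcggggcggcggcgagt
Per1: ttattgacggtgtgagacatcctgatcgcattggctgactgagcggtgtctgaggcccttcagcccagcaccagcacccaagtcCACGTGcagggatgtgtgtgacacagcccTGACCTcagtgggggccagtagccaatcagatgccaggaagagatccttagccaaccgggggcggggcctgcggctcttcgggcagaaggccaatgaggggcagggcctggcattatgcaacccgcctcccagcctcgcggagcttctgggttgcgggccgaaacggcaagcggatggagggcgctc
Cry1: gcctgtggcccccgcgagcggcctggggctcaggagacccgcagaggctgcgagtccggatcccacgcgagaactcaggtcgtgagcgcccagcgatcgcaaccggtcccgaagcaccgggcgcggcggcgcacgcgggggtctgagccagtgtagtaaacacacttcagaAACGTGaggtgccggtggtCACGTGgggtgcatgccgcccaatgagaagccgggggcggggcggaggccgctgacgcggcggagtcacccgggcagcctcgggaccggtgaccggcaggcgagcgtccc
Nr1d1: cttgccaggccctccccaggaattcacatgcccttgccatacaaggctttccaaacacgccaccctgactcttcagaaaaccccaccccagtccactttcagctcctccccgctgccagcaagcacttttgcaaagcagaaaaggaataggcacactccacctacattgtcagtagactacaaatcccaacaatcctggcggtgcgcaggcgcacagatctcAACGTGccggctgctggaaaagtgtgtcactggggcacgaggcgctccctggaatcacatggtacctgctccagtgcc

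Among the genes not printed, Cry2 held an E-prime box at 166 bases, Bhlhe41 an E-box at 153 bases and Nr1d2 a ROR element core at 77 bases. These matches describe the letters of the windows and do not show that a factor was bound.

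Most of the repressors stood at their highest level in the OVA/LPS/GGsTop airways. The summed FPKM of the 10 genes ranged from 68.5 to 101 in the PBS libraries, from 84.2 to 99.6 in the vehicle libraries and from 192 to 264 in the GGsTop libraries. Between GGsTop and vehicle, 6 of 10 genes were called higher and 0 lower at an adjusted p under 0.05, against 6.9% of all genes tested called higher and 1.81% called lower, a count from which nothing is read since the genes were chosen on it. Every GGsTop library lay above every vehicle library for 8 genes and below for Cry1, against 17.3% and 12.4% of all genes tested, and Bhlhe41 alone overlapped. The median log2 fold change of the 10 genes was 0.85, beside 0.03 over all genes tested. After the GC correction the calls fell to 3, Per2, Per3 and Cry2, and with the mean of each library kept they were 5, with Bhlhe40 and Nr1d1 added. Over all genes the 1220 calls became 56 after the GC correction and 313 with the library mean kept. RNA of whole tissue was measured, in which fewer cells of a type and less RNA per cell cannot be told apart.

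**Figure D1:**
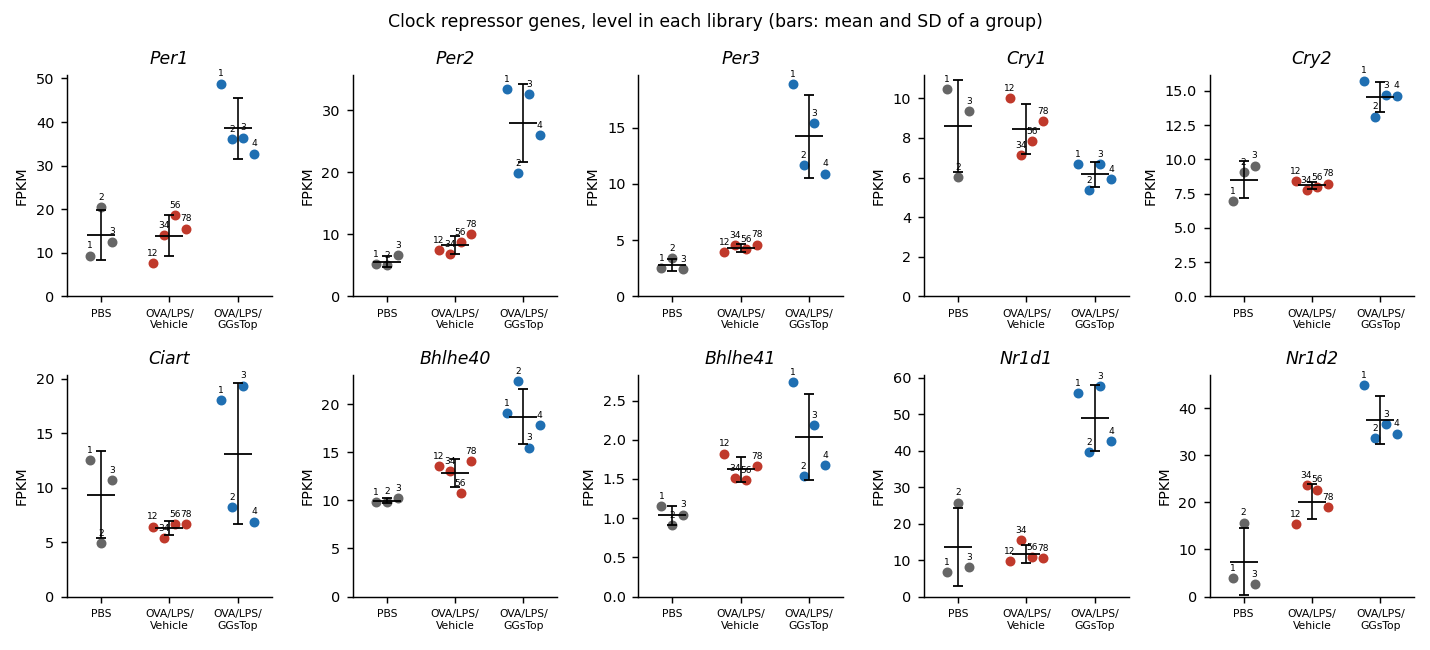
Level of each of the 10 clock repressor genes in FPKM on a linear axis from 0, with 1 point per library labelled by its number and the mean and SD of each group in black (PBS n = 3, OVA/LPS/Vehicle n = 4, OVA/LPS/GGsTop n = 4). The GGsTop libraries of Per1, Per2, Per3, Cry2, Bhlhe40, Nr1d1 and Nr1d2 lie above all libraries of the other groups, while those of Cry1 lie below all vehicle libraries.

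The Period genes encode the PER proteins, which carry CRY into the repressor complex. Per1 stood at 9.34, 20.5 and 12.5 FPKM in PBS 1, 2 and 3, at 7.58, 14.0, 18.6 and 15.5 FPKM in vehicle 12, 34, 56 and 78, and at 48.8, 36.2, 36.4 and 32.7 FPKM in GGsTop 1, 2, 3 and 4. The PBS and vehicle libraries overlapped and the lowest GGsTop library was above all of them. Between GGsTop and vehicle Per1 differed by 1.45 ± 0.27 (SE, log2 fold change on the scale of log2(FPKM + 1)), and by 1.16 after GC correction. Per2 stood at 5.12, 5.04 and 6.58 FPKM in PBS, at 7.48, 6.83, 8.74 and 9.96 FPKM in vehicle, and at 33.4, 19.9, 32.6 and 25.9 FPKM in GGsTop libraries, in the same order of libraries as above. Its 3 groups did not overlap, with PBS lowest and GGsTop highest. Its log2 fold change between GGsTop and vehicle was 1.63 ± 0.17 (SE), a ratio of mean FPKM of 3.39. Per3 ran in parallel at a lower level, with 2.53, 3.40 and 2.45 FPKM in PBS, 3.91, 4.54, 4.17 and 4.59 FPKM in vehicle, and 18.9, 11.7, 15.4 and 10.9 FPKM in GGsTop libraries. Again the 3 groups did not overlap, and the log2 fold change was 1.49 ± 0.16 (SE). The FPKM of Per2 over that of Per3 was 2.07 ± 0.60 in PBS, 1.92 ± 0.30 in vehicle and 1.99 ± 0.31 in GGsTop libraries (mean ± SD), with overlapping ranges. Per1 over Per2 ranged from 1.82 to 4.07 in PBS, from 1.01 to 2.13 in vehicle and from 1.12 to 1.82 in GGsTop libraries, also with overlap.

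The Cryptochromes encode the CRY proteins, which inhibit CLOCK and BMAL1 directly, and the 2 genes differed in direction. Cry1 stood at 10.5, 6.01 and 9.37 FPKM in PBS, at 10.01, 7.12, 7.83 and 8.85 FPKM in vehicle, and at 6.68, 5.36, 6.68 and 5.93 FPKM in GGsTop libraries. All GGsTop libraries were below the lowest vehicle library, but PBS 2 lay among them. The log2 fold change of Cry1 between GGsTop and vehicle was -0.40 ± 0.16 (SE), and it was the only negative value among the 10 genes. Cry2 stood at 6.95, 9.04 and 9.54 FPKM in PBS, at 8.40, 7.78, 7.98 and 8.23 FPKM in vehicle, and at 15.8, 13.1, 14.7 and 14.7 FPKM in GGsTop libraries. The vehicle libraries were within the PBS range, and the GGsTop libraries formed a narrow group above both. For Cry2 the log2 fold change was 0.77 ± 0.10 (SE), and 0.55 after GC correction. Within a library, the FPKM of Cry2 over Cry1 was between 0.665 and 1.51 in PBS, between 0.84 and 1.09 in vehicle and between 2.20 and 2.47 in GGsTop libraries. Per length, Cry2 thus stood above Cry1 in every GGsTop library, while either gene could lead in PBS and vehicle libraries.

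CIART, also called CHRONO, binds BMAL1 and represses E-box transcription. Its gene, whose window held the 3 E-boxes above, stood at 12.5, 4.91 and 10.7 FPKM in PBS, at 6.42, 5.37, 6.66 and 6.67 FPKM in vehicle, and at 18.1, 8.20, 19.4 and 6.87 FPKM in GGsTop libraries. The GGsTop libraries split, with 1 and 3 far above 2 and 4, and GGsTop 4 was barely over the highest vehicle library. The log2 fold change between GGsTop and vehicle was 0.84 ± 0.33 (SE). The coefficient of variation of Ciart was 49.5% in GGsTop, the highest of the 10 genes there, and 9.81% in vehicle libraries.

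DEC1 and DEC2, encoded by Bhlhe40 and Bhlhe41, compete with the activators for E-boxes. Bhlhe40 stood at 9.81, 9.87 and 10.2 FPKM in PBS, at 13.5, 13.03, 10.7 and 14.1 FPKM in vehicle, and at 19.1, 22.4, 15.5 and 17.8 FPKM in GGsTop libraries. The groups formed 3 steps with no overlap, and the log2 fold change between GGsTop and vehicle was 0.50 ± 0.12 (SE). Bhlhe41, the lowest of the 10 genes in each group, stood at 1.16, 0.912 and 1.05 FPKM in PBS, at 1.82, 1.52, 1.48 and 1.67 FPKM in vehicle, and at 2.74, 1.54, 2.19 and 1.68 FPKM in GGsTop libraries. GGsTop 2 and 4 fell within the vehicle range, and the log2 fold change was 0.20 ± 0.13 (SE). The smallest number of fragments behind any value of the 10 genes was 95, for Bhlhe41.

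The REV-ERB receptors close the second loop of the clock by repressing Arntl. Nr1d1, which encodes REV-ERBα, stood at 6.75, 25.8 and 8.13 FPKM in PBS, at 9.73, 15.4, 10.8 and 10.6 FPKM in vehicle, and at 55.7, 39.6, 57.7 and 42.7 FPKM in GGsTop libraries. PBS 2 was above all vehicle libraries, PBS 1 and PBS 3 were below all of them, and every GGsTop library was above PBS 2. The log2 fold change between GGsTop and vehicle was 1.98 ± 0.33 (SE), the largest of the 10 genes, with a ratio of mean FPKM of 4.20. Nr1d2, which encodes REV-ERBβ, stood at 3.83, 15.7 and 2.72 FPKM in PBS, at 15.3, 23.6, 22.7 and 19.0 FPKM in vehicle, and at 44.8, 33.6, 36.5 and 34.6 FPKM in GGsTop libraries. Here vehicle libraries were already high, with PBS 2 just over vehicle 12, and GGsTop libraries were above all others. The log2 fold change between GGsTop and vehicle was 0.87 ± 0.37 (SE), and 1.14 after GC correction. Nr1d1 over Nr1d2 was between 1.64 and 2.99 in PBS, between 0.475 and 0.654 in vehicle and between 1.18 and 1.58 in GGsTop libraries, so that the ratio was lowest in vehicle airways and the 3 groups did not overlap. Nr1d2 has a GC content of 41.8% and Nr1d1 of 56.8%, and the part of the GC slopes of the libraries in this ratio was not tested.

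In order of mean FPKM ± SD, the GGsTop airways held Nr1d1 at 48.9 ± 9.14, Per1 at 38.5 ± 7.07, Nr1d2 at 37.4 ± 5.10, Per2 at 28.0 ± 6.32, Bhlhe40 at 18.7 ± 2.89, Cry2 at 14.6 ± 1.08, Per3 at 14.2 ± 3.69, Ciart at 13.1 ± 6.50, Cry1 at 6.16 ± 0.640 and Bhlhe41 at 2.04 ± 0.545 (n = 4). Per1 and Nr1d2, and the run of Cry2, Per3 and Ciart, differed by less than their SD. In the vehicle airways Nr1d2 led at 20.2 ± 3.79 FPKM, followed by Per1 at 13.9 ± 4.63, Bhlhe40 at 12.8 ± 1.48, Nr1d1 at 11.6 ± 2.57, Cry1 at 8.45 ± 1.25, Per2 at 8.25 ± 1.39, Cry2 at 8.10 ± 0.274, Ciart at 6.28 ± 0.616, Per3 at 4.30 ± 0.322 and Bhlhe41 at 1.62 ± 0.156 FPKM (n = 4). Here the neighbours Per1 and Bhlhe40, Bhlhe40 and Nr1d1, Cry1 and Per2, and Per2 and Cry2 differed by less than their SD. In the PBS airways Per1 at 14.1 ± 5.76 and Nr1d1 at 13.6 ± 10.6 FPKM were highest (n = 3), Bhlhe40 at 9.97 ± 0.236, Ciart at 9.37 ± 3.97, Cry1 at 8.61 ± 2.32, Cry2 at 8.51 ± 1.37 and Nr1d2 at 7.41 ± 7.19 FPKM followed, and Per2 at 5.58 ± 0.865, Per3 at 2.79 ± 0.530 and Bhlhe41 at 1.04 ± 0.122 FPKM were lowest. From Per1 to Per2, each neighbour in this order differed by less than the larger SD of the pair.

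Vehicle and PBS airways were compared to ask how the repressors stood in the exacerbation model before any inhibitor. This comparison uses the vehicle libraries of the comparison above, so the results are not independent of each other. Of the 10 genes, 2 were called higher by limma and 0 lower, where 15.9% and 22.1% of all genes tested were called. Over all genes this split moved to 1232 higher and 4570 lower when libraries were scaled to the same FPKM total. Nr1d2 rose by 1.64 ± 0.40 on the log2 scale (SE, adjusted p = 0.0109), although vehicle 12 lay just under PBS 2. Per3 rose by 0.49 ± 0.17 (SE, adjusted p = 0.0411). Neither call held without PBS 3, where the adjusted p was 0.051 for Nr1d2 and 0.136 for Per3. Of 7 fits that each left out a library, Nr1d2 was called in 6 and Per3 in 1. Without PBS 2, the library with the high REV-ERB levels, Nr1d2 was 2.30 higher and Nr1d1 was called as well, at 0.57 (adjusted p = 0.0383). Every vehicle library was above every PBS library for 4 genes, Per2, Per3, Bhlhe40 and Bhlhe41, against 18.7% of all genes tested, and below for 0 genes, against 25.4%.

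Per2, Bhlhe40 and Bhlhe41 did not pass the threshold between vehicle and PBS, with log2 fold changes of 0.49, 0.33 and 0.36 and adjusted p of 0.0536, 0.06 and 0.0566 in limma. For Per1, Cry1, Cry2 and Nr1d1 the log2 fold changes were -0.02, 0.00, -0.05 and 0.01, with SE of 0.29, 0.17, 0.11 and 0.35, and each took the other sign under some alternative setting. Ciart differed by -0.43 ± 0.36 on that scale (SE, adjusted p = 0.349). The median over the 10 genes was 0.17, beside -0.01 over all genes tested.

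GGsTop and PBS airways were compared to set the inhibitor-treated airways beside healthy ones. The GGsTop libraries are those on which the genes were chosen, so these tests are not independent of that choice. By limma 7 of 10 genes were called higher and 0 lower, where 2.06% and 0.821% of all genes tested were called. Per2 was 2.12 ± 0.18 higher on the log2 scale (SE, adjusted p = 0.000266), a ratio of mean FPKM of 5.01. Per3 was 1.98 ± 0.17 higher (SE, adjusted p = 0.000266), and Nr1d2 was 2.51 ± 0.40 higher (SE, adjusted p = 0.0144). The other called genes were Nr1d1 at 1.99 (adjusted p = 0.0192), Per1 at 1.44 (adjusted p = 0.029), Bhlhe40 at 0.83 and Cry2 at 0.72 (adjusted p = 0.0131 for each). Bhlhe41 at 0.56 (adjusted p = 0.0537), Ciart at 0.41 (adjusted p = 0.536) and Cry1 at -0.40 (adjusted p = 0.212) did not pass. With the replicate number as a block, 3 of the 7 remained called, Per2, Per3 and Nr1d2. Without PBS 3 the calls were Per2, Per3, Cry2 and Bhlhe40, and without PBS 1 or without GGsTop 1 they were Per2 and Per3 alone. Over all genes the 403 calls became 122 with the block, 56 without PBS 3, 28 without PBS 1 and 36 without GGsTop 1. Of 7 fits that each left out a library, Per2 and Per3 were called in 7, Cry2 and Bhlhe40 in 5, Nr1d1 and Nr1d2 in 4 and Per1 in 3. Without PBS 2, Cry1 was called lower, at -0.61 (adjusted p = 0.0223). The GGsTop libraries lay above all PBS libraries for 8 genes, against 7.22% of all genes tested, and below for 0 genes, against 7.54%, with Cry1 and Ciart overlapping.

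**Figure D2:**
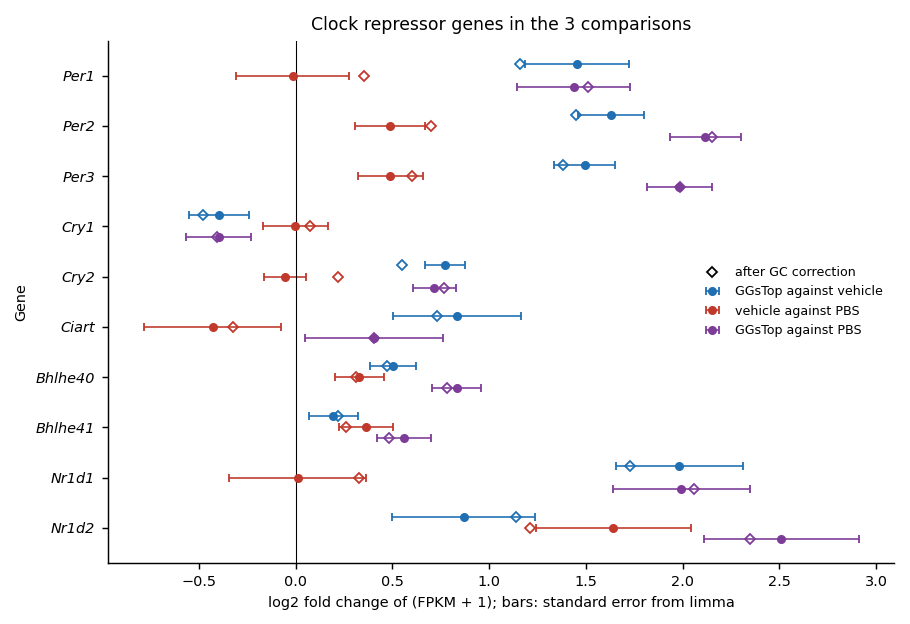
Fold change of each clock repressor gene on the log2(FPKM + 1) scale (x axis) in the 3 comparisons, with filled points and bars for the limma estimate and its standard error and open diamonds for the estimate after GC correction. The 2 comparisons with GGsTop airways lie to the right of 0 for all genes but Cry1, and vehicle against PBS lies near 0 for Per1, Cry1, Cry2 and Nr1d1.

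The activators that the repressors act on went the other way in the GGsTop airways. Arntl, which encodes BMAL1, stood at 5.89, 5.19 and 5.55 FPKM in PBS, at 4.81, 3.59, 3.40 and 3.95 FPKM in vehicle, and at 1.17, 1.90, 1.54 and 2.26 FPKM in GGsTop libraries. Npas2, the relative of CLOCK, stood at 6.53, 5.01 and 7.17 FPKM in PBS, at 3.41, 3.42, 3.29 and 3.98 FPKM in vehicle, and at 0.859, 1.63, 0.807 and 2.54 FPKM in GGsTop libraries. For each of these genes the 3 groups did not overlap, with PBS highest and GGsTop lowest. Between GGsTop and vehicle their log2 fold changes were -0.87 and -0.93, given with no p-value. Arntl fell by 0.41 between vehicle and PBS (adjusted p = 0.0444) and by 1.28 between GGsTop and PBS (adjusted p = 0.0027). Npas2 fell by 0.67 (adjusted p = 0.0305) and by 1.60 (adjusted p = 0.00683) in the same comparisons. Between vehicle and PBS each call held in 2 of 7 fits that left out a library, with adjusted p of 0.102 and 0.118 without PBS 3, while between GGsTop and PBS each held in 7 of 7. Clock stood between 5.72 and 7.85 FPKM in PBS, between 8.67 and 9.71 FPKM in vehicle and between 5.98 and 6.38 FPKM in GGsTop libraries. Its log2 fold change of 0.33 between vehicle and PBS (adjusted p = 0.0337) became -0.15 after GC correction, and the call was lost without PBS 3 (adjusted p = 0.076). Of the 7 activator genes listed, 5 were tested, and 0 were called higher and 3 lower between GGsTop and vehicle, Arntl, Npas2 and Clock, beside the 6.9% and 1.81% of all genes. For Clock that log2 fold change of -0.49 became -0.19 after GC correction, and it was no longer called.

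Within each library, the FPKM of Per2 over Arntl was between 0.869 and 1.19 in PBS, between 1.55 and 2.57 in vehicle and between 10.5 and 28.5 in GGsTop airways. Nr1d1 over Arntl was between 1.146 and 4.97 in PBS, between 2.02 and 4.30 in vehicle and between 18.9 and 47.5 in GGsTop airways. The Per2 ratio separated all 3 groups, whereas the Nr1d1 ratio of PBS 2 was above all vehicle libraries.

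**Figure D3:**
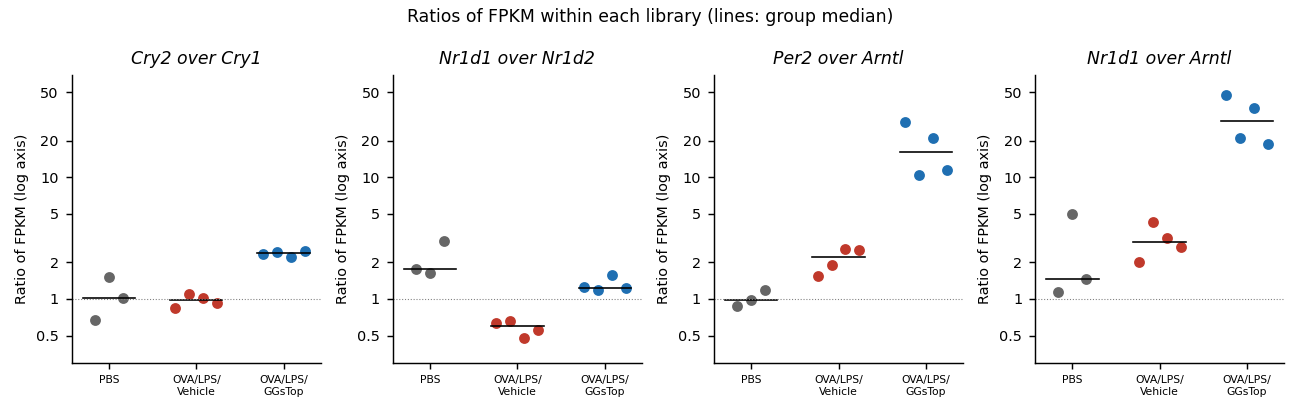
Ratio of FPKM between gene pairs within each library, on a log axis, with 1 point per library and the group median as a line (PBS n = 3, OVA/LPS/Vehicle n = 4, OVA/LPS/GGsTop n = 4). Cry2 over Cry1 lies between 2.20 and 2.47 in GGsTop libraries, and the ratios of Per2 and Nr1d1 to Arntl are highest there.

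The PAR bZIP factors DBP, TEF and HLF are driven by the same loop and activate D-boxes, such as those of the Per3 window, while NFIL3 represses at the same element. Dbp stood at 0.821, 2.52 and 0.538 FPKM in PBS, at 3.15, 5.05, 5.30 and 3.18 FPKM in vehicle, and at 27.05, 17.3, 21.3 and 16.9 FPKM in GGsTop libraries. Its 3 groups did not overlap. Dbp rose by 1.24 between vehicle and PBS (adjusted p = 0.00821, and 0.0378 without PBS 3) and by 3.31 between GGsTop and PBS (adjusted p = 0.000266). Tef stood between 13.03 and 16.3 FPKM in PBS, between 16.5 and 17.7 FPKM in vehicle and between 36.7 and 54.3 FPKM in GGsTop libraries, and was 1.54 higher in GGsTop than in PBS airways on the log2 scale (adjusted p = 0.000266). Hlf was 1.33 higher (adjusted p = 0.016, and 0.0543 without PBS 3). Nfil3 overlapped across all groups, with a log2 fold change of -0.38 between GGsTop and vehicle. Between GGsTop and vehicle, 2 of these 4 genes were called higher and 0 lower, beside 6.9% and 1.81% of all genes tested. Nothing is read from this count, since the list was chosen with earlier results of these data known.

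**Figure D4:**
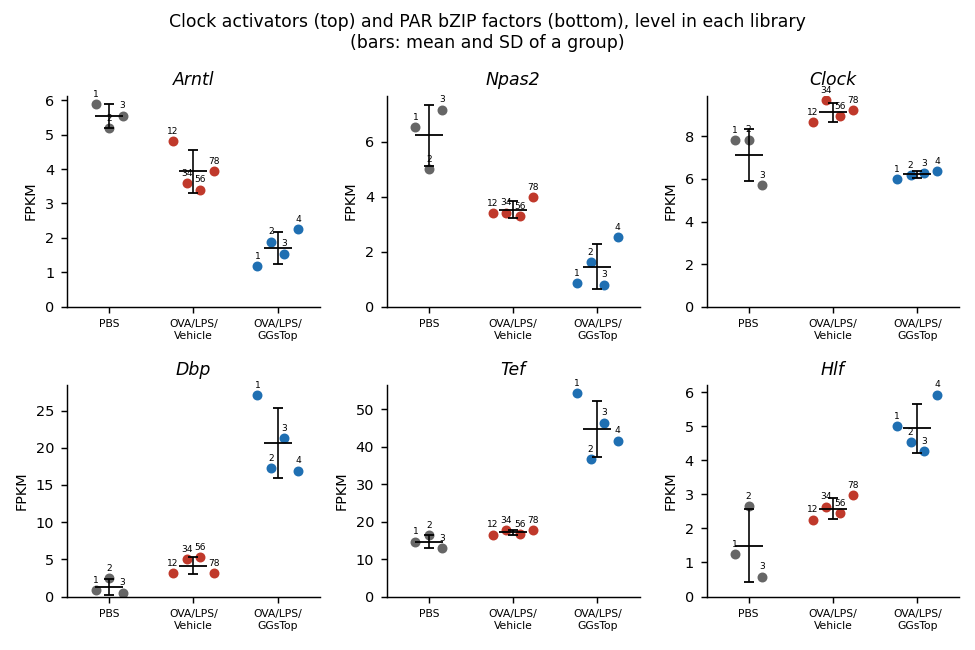
Level in FPKM, on linear axes from 0, of the activator genes Arntl, Npas2 and Clock and of the PAR bZIP genes Dbp, Tef and Hlf in each library, labelled by number, with the mean and SD of each group in black. Arntl and Npas2 are lowest and Dbp and Tef highest in the GGsTop libraries, and Clock is highest in vehicle libraries.

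Of 10 tested genes for kinases, ubiquitin ligases and partners of PER and CRY, 1 was called higher and 0 lower between GGsTop and vehicle, namely Csnk1d, a casein kinase that phosphorylates PER, at a log2 fold change of 0.36, which became 0.19 and was no longer called after GC correction. Between vehicle and PBS, 3 were called lower, Csnk1d at -0.40, Csnk1e at -0.40 and Csnk2b at -0.29, and Gsk3b, a further kinase of clock proteins, was called higher at 0.50. After GC correction these values were -0.20, -0.10, -0.13 and 0.31 in the same order, and of these only Gsk3b was still called. Without PBS 3 the calls of Csnk1e (adjusted p = 0.158) and Csnk2b (adjusted p = 0.121) were lost. Between GGsTop and PBS 0 of the 10 were called by limma or by voom, and 1 had an unadjusted p under 0.05.

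Per1 and several other members also respond to glucocorticoids and to acute stimuli, and lists for these were read beside them. Of 9 glucocorticoid-induced genes tested, 1 was called higher and 0 lower between GGsTop and vehicle, beside 6.9% and 1.81% of all genes. The called gene was Fkbp5, at a log2 fold change of 0.65, or 0.56 and not called after GC correction. Between vehicle and PBS 2 were called higher, Tsc22d3 at 1.29 and Klf9 at 0.85, and 1 lower, Dusp1 at -0.75, beside 15.9% and 22.1% of all genes. The call of Dusp1 was lost without PBS 3 (adjusted p = 0.0659) and after GC correction (adjusted p = 0.064). Between GGsTop and PBS 3 were called higher, Fkbp5 at 1.07, Tsc22d3 at 1.65 and Klf9 at 0.82, and 0 lower, beside 2.06% and 0.821% of all genes. Without PBS 3 the calls of Tsc22d3 (adjusted p = 0.0587) and Klf9 (adjusted p = 0.123) were lost, and with the replicate block that of Klf9 (adjusted p = 0.0525). The list median was 0.24 between GGsTop and vehicle, beside 0.03 over all genes tested. Of 11 immediate early genes 0 were called in either direction between GGsTop and vehicle by limma or by voom. By limma 6.9% of all genes were called higher and 1.81% lower there. Of the 11 genes 1 had an unadjusted p under 0.05, and the median log2 fold change was -0.04. Between vehicle and PBS 4 were called lower, Jun at -0.43, Junb at -0.71, Ier2 at -0.94 and Nr4a1 at -1.17, beside 22.1% of all genes. After GC correction these values were -0.16, -0.35, -0.57 and -0.85 and only Ier2 was still called, and without PBS 3 the call of Jun was lost (adjusted p = 0.126). Between GGsTop and PBS 0 of the 11 were called by limma or by voom, and 6 had an unadjusted p under 0.05. By limma 2.06% of all genes were called higher and 0.821% lower there. The median of the 11 was -0.44, with 8 negative and 3 positive values, beside 0.01 over all genes tested.

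Libraries within a group differed along shared lines. GGsTop 1 and 3 were the 2 highest of the 4 GGsTop libraries for 9 of the 10 genes, with Bhlhe40 the exception, and this order held for 30.8% of all genes tested. PBS 2 was the highest PBS library for Per1, Per3, Nr1d1 and Nr1d2 and the lowest for Per2, Cry1, Ciart and Bhlhe41, whereas 36.8% and 31.8% of all genes tested had PBS 2 highest or lowest. Cardiac muscle markers, 6 genes that would mark heart muscle carried along in dissection or in pulmonary veins, summed to 95.3, 1726 and 136 FPKM in PBS 1, 2 and 3, to between 838 and 1348 FPKM in vehicle, and to 875, 2039, 557 and 2350 FPKM in GGsTop 1, 2, 3 and 4. Thus PBS 2, GGsTop 2 and GGsTop 4 held the most of this RNA, and the part of heart muscle in the levels of the clock genes was not tested.

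**Figure D5:**
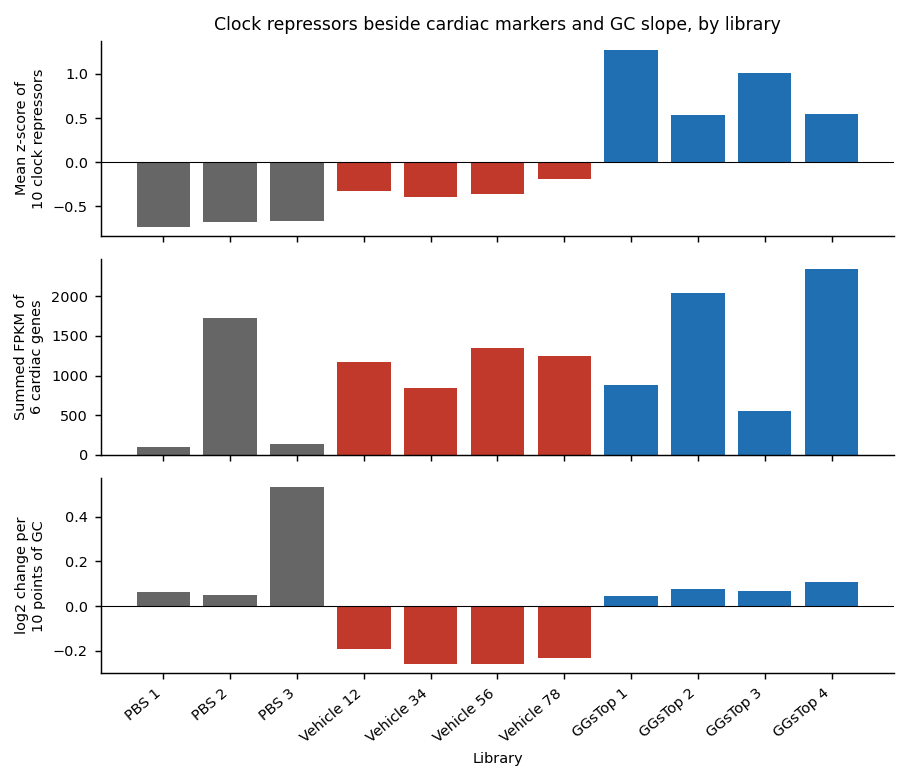
For each of the 11 libraries, the mean z-score of the 10 clock repressors over libraries (top, no unit), the summed FPKM of 6 cardiac muscle genes (middle) and the GC slope per 10 points (bottom), coloured by group. The GC slope is that of the log2 level, as deviation from the mean of each gene over all libraries, on GC content. GGsTop 1 and 3 have the highest repressor score at 1.28 and 1.005 and the lowest cardiac sums of their group, and all vehicle libraries have a negative GC slope.

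The score of the 10 repressors, the mean of their z-scores, was used to name the genes most like them over the 11 libraries, which share their group structure. The 10 closest genes outside the set were Tef (Pearson r = 0.979), Hif3a (0.955), Map3k21 (0.947), Cipc (0.941), Dbp (0.941), Alas1 (0.939), Fhdc1 (0.924), Map3k6 (0.922), Slc23a2 (0.922) and Mpp3 (0.919). Cipc encodes a further CLOCK-interacting repressor and Alas1 the first enzyme of haem synthesis. Cipc stood at 10.02 ± 1.16 FPKM in PBS, 11.3 ± 0.370 FPKM in vehicle and 15.3 ± 1.06 FPKM in GGsTop airways (mean ± SD). Among the repressors, Per3 (0.986) and Per2 (0.978) followed the mean of the other 9 most closely, Ciart (0.499) loosely, and Cry1 ran against it (-0.658).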

How the data were processed

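RNA of the airway was sequenced from PBS (n = 3), OVA/LPS/Vehicle (n = 4) and OVA/LPS/GGsTop (n = 4) libraries. The authors deposited FPKM per gene, fragments scaled by exon length and library total. The submitters' processing notes name cutadapt 1.15, HISAT2 2.0.5, HTSeq 0.9.1 and mm39, with no roles given. FPKM came out as whole fragments in every library for 98.1% of genes with a symbol (tolerance 0.05 fragment, exon lengths of GENCODE M21 on GRCm38), which gave the depths.

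Levels were fitted over all 3 groups as log2(FPKM + 1) for genes averaging 0.5 FPKM or more. The fit used limma 3.58.1 (R 4.3.3) with a trended prior variance. P-values were two-sided, adjusted by Benjamini-Hochberg over all 14004 genes, and called under 0.05. Fold changes on this scale understate changes of low genes. Labels do not say that libraries are separate animals, so p-values measure the spread between these libraries, which may be technical.

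The 10 genes and all gene lists were chosen with earlier results of these data known. Named genes are the 10 repressors, the clock, glucocorticoid and immediate early lists, and the 10 genes most like the repressors' mean z-score. Some results under this rule are not reported here. PBS and GGsTop libraries share the numbers 1 to 3, and deviations from the group means correlated between same-numbered libraries at 0.158, 0.624 and 0.401, which met the rule of over 0.1 for a pairing, although PBS 1 correlated better with GGsTop 3 (0.419). Alternatives were another pseudocount, filters, scalings, array weights, GC correction (a spline with 5 degrees of freedom), fits of 2 groups, leaving out each library, and the replicate block. A voom fit on the recovered fragments, a GC correction that keeps the library mean and one without PBS 3 were added after the data were seen.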

Additional observations from a re-analysis of the deposited data

How the results depend on the processing

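The 6 calls among the repressors between GGsTop and vehicle became 3 with GC correction, and 3 to 6 when each library was left out (3 without vehicle 56, without GGsTop 1 or without GGsTop 3). The GC correction was planned as a subtraction of the whole fitted curve, and a form that keeps the library mean, tried after its result was seen, gave 5 calls. Array weights gave 9 calls (8 higher, and Cry1 lower) and a fit of only these groups 8 (7 higher, and Cry1 lower). Over all genes in that comparison the 1220 calls became 56 (34 higher, 22 lower) with the planned form and 313 (252 higher, 61 lower) with the other, 698 (344 higher, 354 lower) at the same median FPKM, 2181 (2026 higher, 155 lower) at the same FPKM total, 5214 with array weights, 3519 with only these groups, and 24 to 1052 when each library was left out. The same FPKM total moved the median log2 fold change of all genes from 0.03 to 0.11 here and from -0.01 to -0.15 between vehicle and PBS.

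The 2 calls between vehicle and PBS became 4 at a pseudocount of 0.1, 1 with no filter, 1 at the same FPKM total, 5 with array weights (4 higher, 1 lower), 4 with only these groups, 4 by voom, 0 with GC correction without PBS 3, and 0 to 3 when each library was left out (0 without PBS 3, 1 without PBS 1 or vehicle 12, 34 or 78). Over all genes the 5327 calls between vehicle and PBS became 2904 with GC correction, 307 with GC correction without PBS 3 and 3057 without PBS 3. The 7 calls between GGsTop and PBS became 2 with only these groups, 3 with the replicate block, 4 with GC correction without PBS 3, and 2 to 8 when each library was left out (2 without PBS 1 or GGsTop 1, 4 without PBS 3). The replicate block with GC correction also gave 7 calls, but not of the same genes. Nr1d1 was no longer called (adjusted p = 0.0695) and Ciart was called (adjusted p = 0.0455). Over all genes in that comparison the 403 calls became 122 with the block, 39 with only these groups and 2557 with array weights. They became 59 with GC correction without PBS 3, and 28 to 1588 when each library was left out. The causes were not tested.

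Signs turned between vehicle and PBS for genes near 0. The log2 fold change of Per1 was 0.45 with array weights, 0.35 with GC correction, 0.38 with the library mean kept, 0.20 with GC correction without PBS 3, and -0.26 to 0.27 when each library was left out. That of Cry1 was 0.000323 at a pseudocount of 0.1, 0.073, 0.097 and 0.14 in the same GC corrections, and -0.21 to 0.14. That of Cry2 was 0.14 with array weights, 0.22, 0.24 and 0.23 in the GC corrections, and -0.18 to 0.025. Nr1d1 was at -0.15 at the same FPKM total and at -0.33 to 0.57 when each library was left out. Clock was at -0.15, -0.12 and -0.092 in the GC corrections. Nfil3 was at 0.029 with array weights and at 0.068 and 0.092 in the GC corrections of all libraries. Between GGsTop and vehicle, and between GGsTop and PBS, no repressor changed sign under any alternative run.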
